A study of Kalanchoe laxiflora with 7 samples.

Results

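Mature leaves of Kalanchoë laxiflora expressed 66 gene models that stood far lower in plants overexpressing KlaxMUTE1. They were chosen from the measured counts. Counts were scaled to CPM, the count divided by the library's total of counted reads and multiplied by 1000000. Each member had at least 1 CPM in every wild-type library, and its highest KlaxMUTE1 OE value was under 0.25 of its lowest wild-type value. Of the 27768 gene models in the table, 16973 reached the wild-type level, and the 66 members are 0.389% of these. With the genotypes exchanged in the same rule, 280 of 17260 gene models (1.62%) met it. Because the choice used this contrast, the differences between genotypes given for members are descriptions and carry no test.

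Messenger RNA of the leaves at the seventh pair was enriched by its poly(A) tail and sequenced from 3 independent KlaxMUTE1 OE lines, 1 library each, and from 4 wild-type individuals. The lines carried mCitrine-KlaxMUTE1 under the constitutive 35S promoter, so the protein was not limited to the cells that normally make it, and the lines had also passed through transformation and tissue culture. The sources used here give neither the age of the plants nor the hour of harvest. MUTE is a basic helix-loop-helix transcription factor that, in Arabidopsis, ends the self-renewing divisions of stomatal precursors and commits them to guard mother cell fate. In K. laxiflora, the authors report that overexpressing KlaxMUTE1 instead brought extra asymmetric divisions. The leaf epidermis was then crowded with small cells and lacked puzzle-shaped pavement cells. Kalanchoë leaves are succulent and can fix CO2 at night by crassulacean acid metabolism (CAM), in which leaf starch or sugars broken down in the dark supply phosphoenolpyruvate, the acceptor of CO2, and malate is stored in the vacuole until day.

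Reads on gene models numbered 20679921 to 27216722 per KlaxMUTE1 OE library and 18665659 to 24659199 per wild-type library. KlaxMUTE1 stood at 820, 1430 and 2402 CPM in KlaxMUTE1 OE replicates 1 to 3 and at 0 counts in all 4 wild-type libraries, as the labels require. On a first principal component with 54.2% of the variance, the lines lay from -116 to -82.9 and the wild-type plants from 53.0 to 79.6. Gene models annotated as leaf photosynthesis components (4 in the annotation used here) were detected in every library and summed to 6676.6 to 10882.5 CPM in KlaxMUTE1 OE and 12842.2 to 14060.6 CPM in wild type. In whole leaves, fewer cells of a type and less RNA per cell cannot be told apart.

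The members spanned the range from scarce to very abundant leaf transcripts. In TPM, the count per length rescaled to a common total for all libraries, their wild-type means ran from 0.533 to 2322, with a median of 44.9, against a median of 13.2 over all 16973 gene models at the same wild-type level. Of the members, 3 exceeded 1000 TPM, 21 lay between 100 and 1000, 33 between 10 and 100, 8 between 1 and 10, and 1 below 1. Those at 100 TPM or more made up 36.4% of the members and 8.36% of all gene models at the wild-type level. The wild-type values took part in the choice, so this difference in level is a description. Together the 66 members took 0.0682% ± 0.00772 of the counted reads in KlaxMUTE1 OE (SD, n = 3) and 0.948% ± 0.208 in wild type (SD, n = 4). Without the most read member, the glucan phosphorylase-like KlGene000141, these shares were 0.0365% ± 0.00334 and 0.685% ± 0.146.

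**Figure D1:**
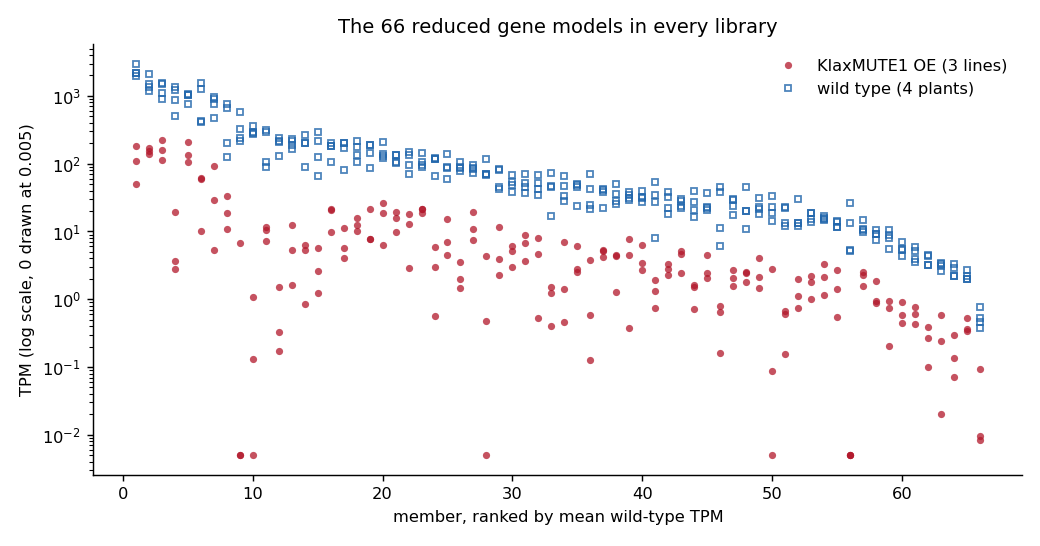
TPM on a log axis of each of the 66 members, ranked along the horizontal axis by mean wild-type TPM. Filled circles are the 3 KlaxMUTE1 OE libraries and open squares the 4 wild-type libraries, with 0 drawn at 0.005, and the circles lie below the squares for every member, as the choice requires.

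Of the 66 members, 2 have a note in the annotation used here, which holds the first 1190 gene models, and the other 64 are described by their values alone. KlGene000141 (4580 bases, ranked 3 by wild-type TPM) was annotated as similar to potato STP-1, the plastidial L-2 isozyme of alpha-1,4 glucan phosphorylase. This enzyme removes glucose units from the ends of starch chains as glucose-1-phosphate. KlGene000141 stood at 161, 115 and 221 TPM in KlaxMUTE1 OE and at 907, 1513, 1114 and 1562 TPM in wild type. It remained measurable in every KlaxMUTE1 OE line, and no line came near the wild-type range. Its means were 166 ± 53.3 TPM (SD, n = 3) in KlaxMUTE1 OE and 1274 ± 317 TPM (SD, n = 4) in wild type. The fitted log2 fold change was -3.22 (SE 0.36), and the mean KlaxMUTE1 OE CPM was 12.1% of the wild-type mean.

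KlGene001209 (3132 bases) was annotated as similar to PIN8, an auxin efflux carrier component that in Arabidopsis acts at the endoplasmic reticulum and is known from pollen. Its counts were 79, 3 and 0 in KlaxMUTE1 OE replicates 1 to 3, against 606, 1179, 473 and 560 in wild type. In CPM these were 3.82, 0.110 and 0 in KlaxMUTE1 OE and 32.5, 47.8, 20.3 and 26.2 in wild type. Nearly all KlaxMUTE1 OE reads of this gene model came from replicate 1, the line with the lowest KlaxMUTE1 level. The log2 fold change was -4.77 (SE 1.25) with all libraries and -9.16 without that line.

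Among the members without a note, KlGene008086 (464 bases) had the highest wild-type level. It stood at 183, 51.0 and 110 TPM in KlaxMUTE1 OE and at 1948, 2998, 2201 and 2140 TPM in wild type. In CPM scaled by the trimmed mean of M-values (TMM), it was 24.0-fold lower, with a log2 fold change of -4.59 (SE 0.53). KlGene009609 (2711 bases) had the largest fall among members with a read in KlaxMUTE1 OE. Its counts were 26, 4 and 0 in KlaxMUTE1 OE, against 6641, 11244, 8128 and 7095 in wild type. Its mean was 0.468 ± 0.687 CPM in KlaxMUTE1 OE (SD, n = 3) and 373 ± 56.2 CPM in wild type (SD, n = 4), an 873-fold lower TMM-scaled mean and a log2 fold change of -9.85 (SE 1.11). Without replicate 1, which held 26 of these reads, the log2 fold change was -12.34. Every wild-type plant thus gave at least 6641 reads of this gene model, while KlaxMUTE1 OE replicates 2 and 3 were near the counting limit and replicate 1 was not.

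**Figure D2:**
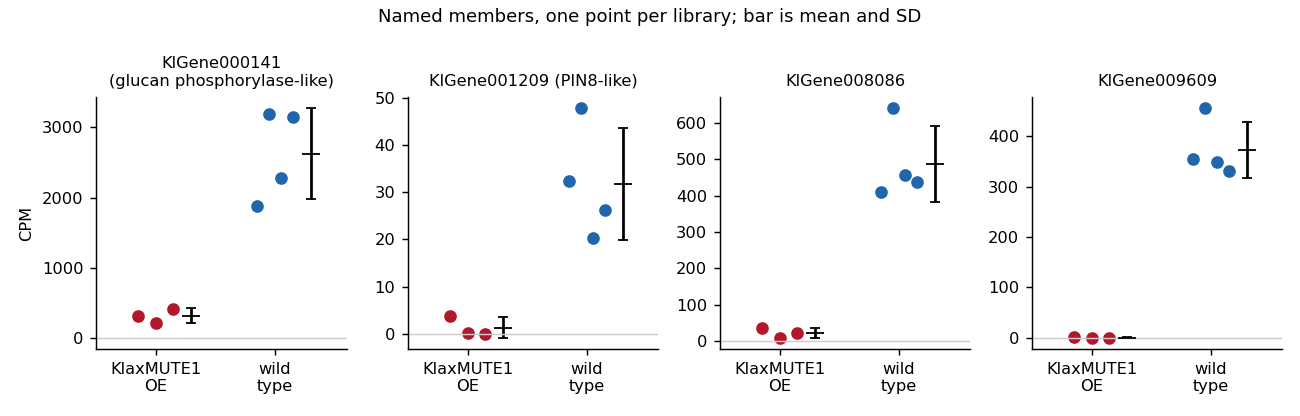
CPM of the 4 members given by identifier, 1 point per library, with KlaxMUTE1 OE at the left of each panel and wild type at the right, and the mean and SD beside each group. KlGene000141 kept 12.1% of its wild-type mean in KlaxMUTE1 OE, whereas KlGene009609 averaged 0.468 CPM there against 373 CPM in wild type.

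The depth of the reduction differed widely among members. Mean KlaxMUTE1 OE CPM was under 1% of the wild-type mean in 5 members, 1 to 5% in 19, 5 to 10% in 22 and above 10% in 20, with a median of 8.10% and a highest value of 17.5%. The 24 members at 100 TPM or more in wild type kept a median of 4.59%, and 14 of them kept under 5%. The 42 less abundant members kept a median of 8.48%, and 10 of them kept under 5%. The deepest reductions were therefore not limited to scarce transcripts: 4 of the 5 members under 1% ranked 4, 9, 10 and 12 by wild-type TPM.

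The member ranked 4 (3210 bases) had 3.62, 19.1 and 2.79 TPM in KlaxMUTE1 OE and 500, 1358, 861 and 1203 TPM in wild type. The member ranked 12 (4164 bases) had 56, 15 and 7 counts in KlaxMUTE1 OE and 4547, 10313, 9216 and 9539 counts in wild type. The member ranked 9 (302 bases) had 18, 0 and 0 counts in KlaxMUTE1 OE and 834, 1995, 677 and 678 counts in wild type. These values place KlaxMUTE1 OE replicate 2 highest for the member ranked 4 and replicate 1 highest for those ranked 9 and 12. The member ranked 56 was the only member with 0 counts in every KlaxMUTE1 OE line. It had 461, 317, 117 and 102 counts in wild type, and with a floor of 3 counts per library it was at least 104-fold lower in KlaxMUTE1 OE. At the other end, the member ranked 2 (883 bases) had 138, 155 and 169 TPM in KlaxMUTE1 OE, and 1350, 2086, 1171 and 1516 TPM in wild type.

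All 66 members passed the filter on low counts, and all 66 were called lower in edgeR's quasi-likelihood test (adjusted p under 0.1 by Benjamini-Hochberg and log2 fold change under -1), where 1665 of 21902 gene models tested were (7.60%). The choice of members used the same contrast, so nothing is read from this count. Their log2 fold changes ranged from -2.70 to -9.85 in members with a read in KlaxMUTE1 OE, and the fitted value of the member at 0 was -11.16, which depends on the prior count. The median was -3.81, also with that member at its bound, against 0.07 over all gene models tested. Of the members, 62 were under -3 and 29 under -4, and the standard errors ran from 0.21 to 1.41.

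The limit of the rule cut through a continuous range. The 3 members nearest to it had a highest KlaxMUTE1 OE value of 24.4, 24.6 and 24.8% of their lowest wild-type value, and the 3 gene models just outside had 25.3, 25.5 and 25.7%. The ratio was under 0.05 in 6 members. Among the 16973 gene models, 217 had a ratio between 0.25 and 0.5, and 2075 between 0.5 and 1. With CPM scaled by TMM or by DESeq2's size factors, the rule gave 81 gene models each. With TPM, it gave 59, of which 54 were among the 66.

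The choice held every line of KlaxMUTE1 OE to the same limit, so the levels of the lines are descriptions of what it left. In percent of the wild-type mean, the median member was at 6.56, 6.73 and 7.00 in replicates 1, 2 and 3, and 23, 27 and 27 members were under 5%. KlaxMUTE1 itself was lowest in replicate 1 and highest in replicate 3. Over these lines in that order, 9 members (13.6%) rose at each step and 9 fell at each step, against 17.1% and 19.7% of the 16907 other gene models at the wild-type level. The lowest of the lines was replicate 2 for 27 members (40.9%), against 22.4% of the other gene models. The highest of the lines was replicate 1 for 25 members (37.9%), against 34.0% of the other gene models.

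Where every line had a count (61 members), the highest line exceeded the lowest by a median of 2.82-fold. Over the other gene models at the wild-type level, the same median was 1.54-fold. Low counts widen such ratios: 28 of the 66 members had under 10 counts in at least 1 line, and over the other 38 the median was 2.30-fold. Over the 61, the ratio was above 10 in 8 members and under 2 in 16, and its largest value, 31.6, came from 48, 2 and 8 counts. Of these 8 members, 3 were highest in replicate 1, 4 in replicate 2 and 1 in replicate 3. Of the 5 members with 0 counts in some line, 4 had their highest count in replicate 1, and the other had none in any line. The lines were lower together for each member by the choice itself, while the level that remained was not ordered in the same way from member to member.

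**Figure D3:**
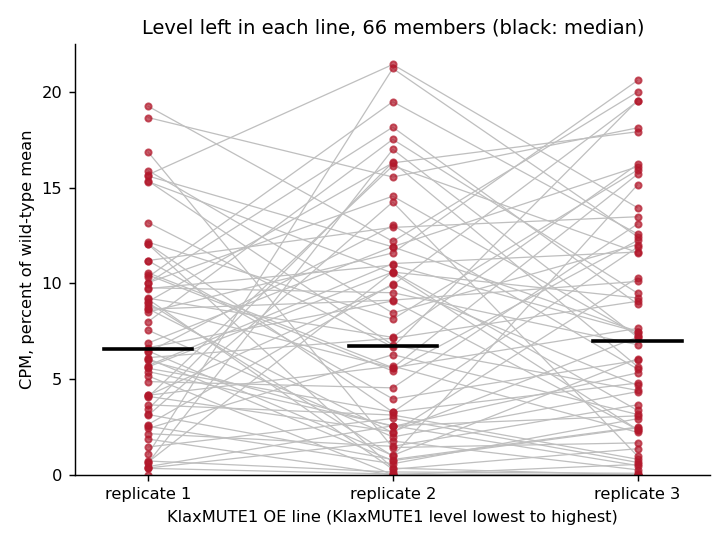
CPM of the 66 members in each KlaxMUTE1 OE line as percent of the wild-type mean, with grey lines joining the same member and black bars at the medians. The medians were 6.56, 6.73 and 7.00% in replicates 1 to 3, and the grey lines cross.

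Because each library took part in the choice, the choice was repeated without each in turn and the chosen gene models were then read in the library left out. The libraries of the other genotype were shared by both steps, so this is given as a description. Without KlaxMUTE1 OE replicate 1, the rule chose 97 gene models, of which 90 (92.8%) stood below every wild-type library in replicate 1, against 33.0% of all gene models at the wild-type level. Without replicate 2 it chose 125, of which 109 (87.2%) stood below every wild-type library in replicate 2, against 24.0%. Without replicate 3 it chose 92, of which 87 (94.6%) stood below every wild-type library in replicate 3, against 30.1%. In the line left out, the chosen gene models were at a median of 10.04, 16.3 and 10.7% of the wild-type mean for replicates 1, 2 and 3. These medians are of different sets of gene models. Over all gene models at the wild-type level, the same lines had medians of 105.5, 116.9 and 107.0%. Replicate 2 thus had the highest median there too, though in proportion it was closer to the other lines. Why it was highest among the chosen gene models was not tested. The count of gene models changed most without replicate 2. Those that also met the ratio limit in the line left out are the 66 members themselves, by construction. Leaving out a wild-type library gave 99, 70, 70 and 71 gene models for replicates 1 to 4. All of them stood above every KlaxMUTE1 OE library in the wild-type library left out, against 21.1, 28.4, 22.6 and 25.2% of all gene models at the wild-type level. To miss either comparison, the library left out had to depart from the others of its genotype by more than the ratio limit. The choice thus favoured these high shares and nearly fixed those of wild type, so nothing is read from them.

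**Figure D4:**
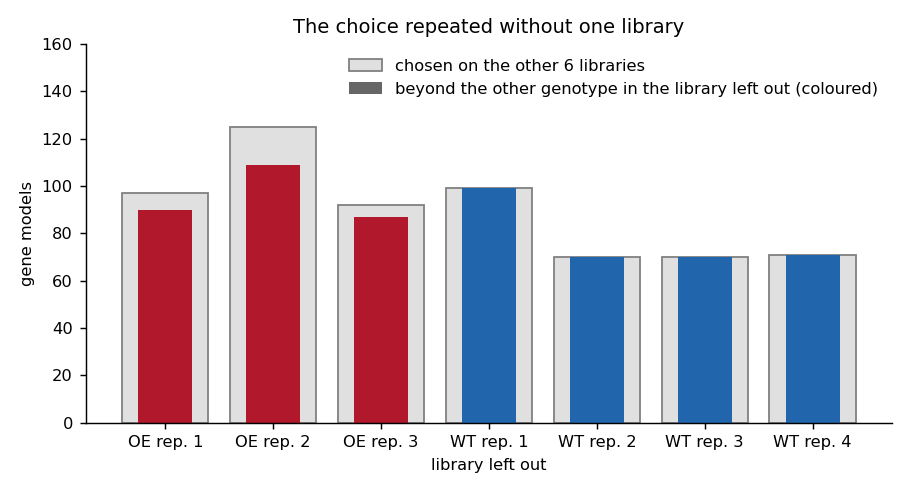
Number of gene models chosen from the other 6 libraries (pale bars) and the number of these that, in the library left out, stood beyond every library of the other genotype (narrow bars, red for KlaxMUTE1 OE and blue for wild type). The pale bar was highest, at 125, without KlaxMUTE1 OE replicate 2, where the narrow bar stood at 109.

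The wild-type values took part in the choice, so the spread of the members among wild-type plants is given as a description. Their median coefficient of variation between the 4 wild-type libraries was 27.4%, against 14.9% over the other gene models at the wild-type level. Within the band of 5 to 100 wild-type CPM, the medians were 29.8% for 40 members and 13.7% for the others. The highest wild-type library exceeded the lowest more than 3-fold in 10 members (15.2%), against 3.00% of the other gene models, and the largest ratio was 7.32. Wild-type replicate 2 was highest for 34 members (51.5%, against 34.5% of the other gene models), and replicate 1 was lowest for 34 (51.5%, against 33.1%).

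In 4 members, wild-type replicates 3 and 4 both exceeded replicates 1 and 2 by more than 2-fold, a pattern held by 6.06% of members and by 15 (0.0887%) of the other gene models. The member ranked 6 (479 bases) had 61.3, 10.2 and 60.2 TPM in KlaxMUTE1 OE and 410, 420, 1562 and 1273 TPM in wild type. The member ranked 8 (878 bases) had 18.4, 10.8 and 33.9 TPM in KlaxMUTE1 OE and 127, 201, 765 and 651 TPM in wild type. The member ranked 11 (2060 bases) had 11.6, 7.27 and 10.5 TPM in KlaxMUTE1 OE and 88.8, 106, 294 and 317 TPM in wild type. The 4 members were picked by this pattern, so it is by the pick that the same wild-type plants were high in each. Only this split of the wild-type plants is given. The size of the fall for these members depended on the wild-type plants it was measured against. The member ranked 46 had 0.655, 0.159 and 0.794 TPM in KlaxMUTE1 OE and 6.02, 11.2, 37.8 and 45.4 TPM in wild type, the widest wild-type range of any member.

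Of the 15 other gene models with this wild-type pattern, 3 had a note. KlGene000199, a protein of unknown function, had 54, 10 and 30 counts in KlaxMUTE1 OE and 35, 68, 146 and 199 counts in wild type, so that its groups overlapped (log2 fold change -1.99, adjusted p 0.0995 in edgeR's test). KlGene001071, similar to a soybean HSP70 chaperone that helps proteins fold, had 1.55, 3.05 and 1.21 CPM in KlaxMUTE1 OE and 7.55, 18.5, 100 and 104 CPM in wild type. KlGene000485, similar to U2AF35A, a small subunit of the factor that recognises the end of an intron during splicing, had 0.629, 0.478 and 0.990 CPM in KlaxMUTE1 OE and 3.59, 7.54, 33.0 and 27.1 CPM in wild type. KlGene001071 and KlGene000485 fell in KlaxMUTE1 OE in edgeR's test (log2 fold change -5.11, adjusted p 0.0137, and -4.87, adjusted p 0.00975), and both missed the members' limit, with a highest KlaxMUTE1 OE value of 40.4% and 27.6% of the lowest wild-type value. Whether growth conditions or hour of harvest differed between wild-type plants was not tested.

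The gene models of the members were short. Their lengths ran from 254 to 10739 bases with a median of 1424, against 3186 over the other gene models at the wild-type level, and 22 members (33.3%) were shorter than 1000 bases, against 8.53%. Within the band of 5 to 100 wild-type CPM, the medians were 1376.5 bases for 40 members and 3354 bases for the others. The sources used here do not say whether introns are counted in these lengths.

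**Figure D5:**
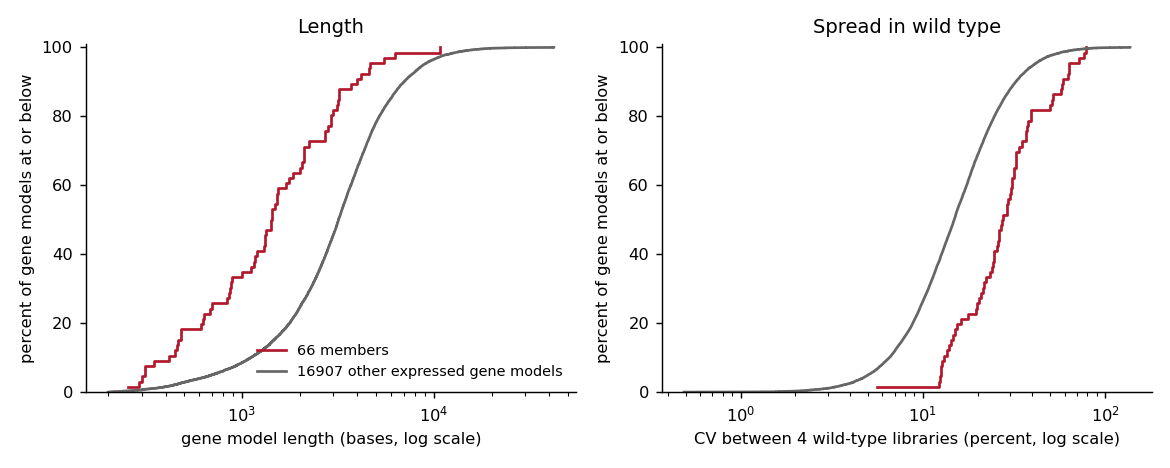
Percent of gene models at or below each length (left) and each coefficient of variation between the 4 wild-type libraries (right), both on log axes, for the 66 members in red and the 16907 other gene models at the wild-type level in grey. The member curve lies toward shorter lengths (median 1424 against 3186 bases) and toward a larger wild-type spread (median 27.4 against 14.9%).

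Most members had no other member close by in gene model number, which is taken here only as a label order. No members had consecutive numbers, and 10 (15.2%) had another member within 20 numbers, against 8.29% of the other gene models, forming 5 pairs. The members ranked first and second by wild-type TPM formed one pair, 13 numbers apart, and those ranked 11 and 12 formed another, 12 apart. In a further pair, 2 numbers apart, both gene models were 311 bases long. One of these had 2.15, 1.45 and 4.02 TPM in KlaxMUTE1 OE and 22.8, 31.5, 17.9 and 21.5 TPM in wild type. The other had 2.15, 1.16 and 3.35 TPM in KlaxMUTE1 OE and 15.5, 15.3, 16.9 and 15.0 TPM in wild type. Since their sequences were not used here, a sharing of reads between near-identical copies could not be checked, and their separate levels are uncertain.

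The annotated members were set beside the other gene models of their families, found by words in the notes and tested with edgeR over all gene models. In the counts of families, fell and rose mean called by both limits, on adjusted p and on log2 fold change. Of 4 gene models annotated as PIN auxin carriers, 2 had enough counts for the test, the PIN8-like member, whose difference was used in the choice, and a PIN7-like gene model. The PIN7-like KlGene000015, related to a carrier that in Arabidopsis moves auxin out across the plasma membrane, had 115, 117 and 155 CPM in KlaxMUTE1 OE and 36.5, 28.1, 38.1 and 33.6 CPM in wild type. It rose in all 3 lines (log2 fold change 1.73, SE 0.19, adjusted p 0.00228), while the PIN8-like member stood lower in all 3. The PIN2-like gene model had 0 counts in every library, and the PIN1C-like one had too few to be tested. Of 3 other auxin-related gene models tested, 1 rose, none fell and 2 did not pass the test.

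Of 6 gene models for sugar, starch and trehalose, 5 had enough counts for the test. The glucan phosphorylase-like member was chosen on this contrast, and of the other 4, 1 was called lower, 1 was called higher and 2 did not pass the test. The SWEET11-like KlGene000450, a bidirectional sugar transporter, fell by a log2 fold change of -1.14 (adjusted p 0.0369), with its highest line at 102% of the lowest wild-type value. That call was lost without KlaxMUTE1 OE replicate 2 (log2 fold change -0.92) or with library size as the only scaling (-0.97). A second SWEET11-like gene model, KlGene000451, had a log2 fold change of -0.43 (adjusted p 0.345). The SUC3-like KlGene000189, a sucrose carrier, rose by a log2 fold change of 1.17 (adjusted p 0.0440), a call lost without KlaxMUTE1 OE replicate 1 (log2 fold change 0.95), wild-type replicate 3 (adjusted p 0.116) or wild-type replicate 4 (adjusted p 0.111). The TPS6-like KlGene001039, of the trehalose-phosphate synthase family, had a log2 fold change of -0.17 (adjusted p 0.530). Their log2 fold changes thus ran from -1.14 to 1.17, beside -3.22 for KlGene000141.

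Gene models of malate and pyruvate enzymes and malate transporters, which are not particular to the CAM cycle, included 5 tested. Of these, 2 fell, none rose and 3 were not called. Of those not called, KlGene000800, similar to a glyoxysomal malate dehydrogenase, missed the fold limit alone (log2 fold change -0.96, adjusted p 0.0216 in edgeR's test). Its highest line was at 81.9% of its lowest wild-type value. One that fell was KlGene000905, similar to the mitochondrial NAD-dependent malic enzyme that releases CO2 from malate, at 2.08, 4.04 and 2.97 CPM in KlaxMUTE1 OE and 10.3, 13.4, 12.3 and 10.99 CPM in wild type (log2 fold change -2.15, adjusted p 0.00220). Its highest KlaxMUTE1 OE value was 39.1% of its lowest wild-type value, outside the members' limit. The other that fell was the pyruvate kinase-like KlGene000659 (log2 fold change -1.54, adjusted p 0.0319 in edgeR's test). Its groups overlapped, with its highest line at 104.5% of its lowest wild-type value. Of 4 photosynthesis gene models, 2 fell and 2 were not called. Of the latter, the RBCS1-like KlGene000058 missed the fold limit alone (log2 fold change -0.86, adjusted p 0.0776 in edgeR's test). Of 4 amino acid carriers tested, 1 fell and 3 rose. The one that fell, the AVT1-like vacuolar carrier KlGene000176, had a log2 fold change of -2.75 (adjusted p 0.00323).

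For the remaining families, 1 of 3 HSP70 chaperones fell and none rose, 1 of 10 other chaperones fell and 1 rose, and neither of 2 heat stress factors was called. The groups of the endoplasmin-like KlGene000514, the other chaperone that fell, overlapped, with its highest line at 191% of its lowest wild-type value (adjusted p 0.0573 in edgeR's test). The hspD-like KlGene000111 missed the fold limit alone (log2 fold change -0.97, adjusted p 0.0206), with its highest line at 81.2%. Of 3 splicing factors, 1 was called lower and none was called higher. The other splicing factors met the adjusted p limit and missed the fold limit. The Sf3a2-like KlGene000670 was higher (log2 fold change 0.86, adjusted p 0.00833 in edgeR's test) and the Sf3b3-like KlGene000115 lower (-0.64, adjusted p 0.0135). Of 8 cell wall gene models tested, 1 fell and 2 rose. Neither of 2 tested gene models of pathogenesis-related protein 1 (PR-1), a secreted protein of plant defence, was called. The more abundant, the PR-1C-like KlGene000433, had 31, 3592 and 18 counts in KlaxMUTE1 OE and 185, 10710, 11620 and 3865 counts in wild type, so that its groups overlapped (log2 fold change -2.94, adjusted p 0.259). Without KlaxMUTE1 OE replicate 2, the only line with a high count, its log2 fold change was -8.08 (adjusted p 0.0175). Over all 21902 gene models tested, 1665 fell and 2761 rose. Over the 987 annotated gene models tested, 74 fell (7.50%) and 141 rose. A log2 fold change under -2 was reached by 18 of the 74, of which 2 were members and so chosen on this contrast.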

How the data were processed

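The authors aligned reads to their OBG genome of K. laxiflora with HISAT2, counted reads with HTSeq, and deposited raw counts and TPM per gene model. Tool versions, strandedness and the treatment of reads with several mapping places were not stated. A further deposited column per genotype, headed by the authors as a mean TPM, holds a signal equal to the mean raw count and was not used. The members and the gene lists were chosen with earlier results of these data known. CPM was computed here from the deposited counts. Annotation notes came from the part of the supplement held here. Its columns of the authors' own comparisons (fold changes and p-values) were not used.

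Gene models reaching a total of 10 deposited counts were fitted with edgeR 4.0.16 in R 4.3.3 (TMM scaling, quasi-likelihood test, prior count 0.125, Benjamini-Hochberg adjustment). A call needed both an adjusted p below 0.1 and a log2 fold change beyond 1 in size. Standard errors come from the F statistic. DESeq2 1.42.0, limma 3.58.1, other scalings and filters, leaving out each library, and a replicate block were alternatives. On simulated data for this comparison, edgeR recovered 98.5% of 200 changed gene models, with 15 false calls among 21749. The simulation gave every gene model the same spread setting, and set changes of 2 or 3 in log2 size only in well-counted ones. These rates therefore do not describe smaller changes, scarce gene models or lines that differ more widely. Identifiers are given for the annotated members and for 2 others, the highest in wild type and the one with the largest fall among members read in KlaxMUTE1 OE. Floors of 3 counts cover counting error only, as reads amplified by PCR and lacking molecular identifiers are not independent.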

Additional observations from a re-analysis of the deposited data

Results flagged for a closer look

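Among 15 measures (the members' share of counts and the CPM of named gene models) searched for a wild-type library far from the others, the TPS6-like KlGene001039 stood out. The gap between wild-type replicate 1 and the nearest other wild-type library was 0.8292 of the range of the 4 wild-type CPM values, just past Dixon's critical value at the 95% level. Chance gives such a gap in about 1 of 20 groups.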

How the results depend on the processing

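All 66 members were called lower under every alternative run, which the choice of members favours. The number of members was 283 with the ratio limit raised to 0.5, 20 with it lowered by the same factor, and 70 to 125 with a library left out (125 without KlaxMUTE1 OE replicate 2). Called lower were 1195 gene models with library size as the only scaling and 1219 to 1863 otherwise. Library size alone gave a median log2 fold change over all gene models tested of 0.27, against 0.07 with TMM. It made 74.8% of all calls higher ones, against 62.4% with TMM, and it turned the log2 fold change of the TPS6-like KlGene001039 to 0.034 (adjusted p 0.919). The cause was not tested. The calls of KlGene000015 (log2 fold change 1.56 to 1.92), KlGene001071 (-5.53 to -3.82), KlGene000485 (-5.22 to -4.13), KlGene000905 (-2.35 to -1.95) and KlGene000176 (-3.10 to -2.45) held under the 12 alternatives run on them. With the replicate number as a block, 1219 gene models were called lower and 1534 higher, against 2761 higher without it, and the SUC3-like and SWEET11-like calls were lost (adjusted p 0.164 and 0.158). The numbers share no stated origin, and same-numbered libraries deviated together with correlations of 0.129, 0.0805 and 0.0817, each KlaxMUTE1 OE line correlating best with its own number, a hint from the data and not from the design. With 1 library per line, differences between lines carry no replicate error.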
